A study of Oryza sativa Japonica Group with 6 samples.

Results

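Genes of the circadian clock of rice, CCA1, PRR73, PRR37, PRR95, GI, PRR1 and PCL1, were followed across the replicate numbers of a root microarray experiment. Genes were taken by symbol or synonym in the gene annotation, which gave 7 of the 17905 genes with a single symbol on the array, with 10 of the 57194 probe sets analysed. A probe set is a group of short oligonucleotides on the array that report on a single transcript. These genes were selected on their measured differences between replicate numbers in these same arrays. Those differences are therefore given as a description and without a test.

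The material was root tissue of TNG67, a japonica cultivar, taken from seedlings 10 days old. Seeds were germinated for 3 days in darkness at 30 °C, and seedlings were then grown in hydroponic culture for 1 week under a 12-h photoperiod. Seedlings kept on nitrogen (+N) were compared with seedlings moved for 1 h to solution lacking nitrogen (−N). Each treatment had 3 biological replicates numbered 1, 2 and 3, and a single GeneChip Rice Genome Array was hybridised with the total RNA of each sample. By the labels both treatments included a transfer of 1 h, but by the Methods only −N did. The source name of +N replicate 3 states 0.5 h, and −N replicates 1 and 2 carry the word reanalysis in their titles. No time of harvest, and nothing on what a replicate number marks, is given in the sources used here. The labels do not say whether roots of several seedlings were pooled.

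The plant clock is a loop of transcription factors that repress each other at successive times of day. In Arabidopsis, the MYB-related factors CCA1 and LHY are expressed around dawn and repress genes expressed in the evening. Pseudo-response regulators (PRR proteins) follow in waves from morning to dusk and repress CCA1 and LHY in turn, while GI, TOC1 and LUX belong to the evening genes. Rice carries counterparts of these genes, and several of them act on heading date.

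Differences between replicate numbers ran through the whole array. The values were linear intensities with array medians of 33.3 to 35.2, but the upper quartiles were 137 and 131 in number 1, against 167 to 180 in numbers 2 and 3. A probe set was called bright where its mean log2 intensity was at least 6, an intensity of 64, which held for 21882 probe sets. The median difference of number 1 from the mean of numbers 2 and 3 was −0.38 on the log2 scale over bright probe sets and −0.05 over all probe sets. Number 1 was the lowest in both treatments for 60.0% of bright probe sets. A lower value in number 1 is thus the usual pattern of bright probe sets, and the clock genes are read against it.

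Of the 10 clock probe sets, 8 were bright. The 2 others were second probe sets of CCA1 and PRR37, with 10.6 to 17.7 and 13.6 to 22.3 units, below the median of every array. Of the 8 bright probe sets, 7 had number 1 as the lowest in both treatments. The exception was CCA1, with number 1 as the highest in both.

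CCA1 (LOC4344703) encodes the MYB-related factor of the morning. Its intensity was 955.5, 726.0 and 214.2 in +N replicates 1, 2 and 3, and 846.3, 780.0 and 244.5 in −N replicates 1, 2 and 3. Both arrays of number 3 lay far below the other 4, and in the deposited values numbers 1 and 2 lay near each other. Number 1 was 4.46-fold over number 3 in +N and 3.46-fold in −N, whereas it was 1.32-fold and 1.09-fold over number 2. The +N and −N arrays overlapped, with a mean of 631.9 ± 379.5 (SD, n = 3) for +N, and 623.6 ± 330.0 (SD, n = 3) for −N. The dim second probe set of CCA1 read 13.8, 13.9 and 13.8 units in +N and 17.7, 11.6 and 10.6 in −N. Its −N arrays had the order of the bright probe set, with number 1 at 1.67-fold over number 3, and its +N arrays were level. Number 3 was also the lowest in both treatments in 8 of 14 probe sets of green shoot genes, taken as markers of another tissue. The same held for 7.06% of bright probe sets and 19.4% of all. These 8 all belonged to RCA, PSAG and RBCS-C, so they are not 8 separate markers, and 1 of RBCS-C was dim, at 7.1 to 9.7 units. At the brightest probe set of each gene, number 3 was lowest in both treatments for RCA and PSAG. It was not for CAB2R, PSAH, RBCS-C and RBCS1. The part of these markers in the values of CCA1 was not tested. In bulk roots, fewer cells of a type and less RNA per cell cannot be told apart.

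PRR73 and PRR37 encode pseudo-response regulators that are related in sequence to PRR7 and PRR3 of Arabidopsis. PRR73 (LOC4332464) had intensities of 786.8, 1237 and 1447 in +N replicates 1, 2 and 3, and 595.1, 1483 and 1202 in −N. Number 1 was the lowest in both treatments, but the highest was number 3 in +N and number 2 in −N. Number 3 was 1.84-fold over number 1 in +N and 2.02-fold in −N. A second probe set of PRR73 read 219.4, 284.3 and 333.0 in +N and 204.8, 266.1 and 297.4 in −N. It placed number 3 highest in both treatments, with 1.52-fold and 1.45-fold over number 1.

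PRR37 (LOC4344399) is also known as a heading-date gene of rice. Its bright probe set read 154.7, 225.3 and 277.4 units in +N replicates 1, 2 and 3, and 134.8, 255.1 and 256.3 in −N. Number 1 was again the lowest in both treatments, and numbers 2 and 3 were alike in −N. Number 3 was 1.79-fold over number 1 in +N and 1.90-fold in −N.

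PRR95 (LOC4347674) encodes a pseudo-response regulator related to PRR5 and PRR9 of Arabidopsis. Its intensity was 386.8, 658.7 and 1133 in +N replicates 1, 2 and 3, and 242.5, 882.3 and 1106 in −N. Number 1 was the lowest and number 3 the highest in both treatments. Number 3 exceeded number 1 by 2.93-fold in +N and 4.56-fold in −N.

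GI (LOC4325329), the rice counterpart of GIGANTEA, encodes a large protein of the evening that acts in photoperiodic flowering. It read 1270, 2800 and 3641 units in +N replicates 1, 2 and 3, and 1317, 3019 and 3251 in −N. Both arrays of number 1 lay below the other 4, which were close together. Number 2 was 2.20-fold over number 1 in +N and 2.29-fold in −N, and number 3 was 2.87-fold and 2.47-fold over number 1. Between numbers 3 and 2 the difference was 1.30-fold and 1.08-fold.

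PRR1 (LOC4330000) is the rice counterpart of TOC1, the pseudo-response regulator of the evening. Its intensity was 152.0, 370.4 and 512.2 in +N replicates 1, 2 and 3, and 130.1, 366.4 and 499.3 in −N. The same-numbered arrays of the treatments were close, and the numbers lay in the same order in both treatments. Number 3 was 3.37-fold over number 1 in +N and 3.84-fold in −N.

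PCL1 (LOC4326391) is related to LUX, a DNA-binding factor of the evening. Its intensity was 55.7, 115.4 and 521.6 in +N replicates 1, 2 and 3, and 36.3, 100.4 and 848.4 in −N. Both arrays of number 3 lay far above the other 4. Number 3 was 9.36-fold over number 1 in +N and 23.4-fold in −N, and 4.52-fold and 8.45-fold over number 2. The number 1 arrays were under the limit of 64 for bright probe sets, and 36.3 was close to the median of its array, 35.2, so these folds depend on the lowest values. With a pseudocount of 16 they were 7.49-fold and 16.5-fold over number 1, and 4.09-fold and 7.43-fold over number 2. The mean for +N was 230.9 ± 253.5 (SD, n = 3), the mean for −N was 328.3 ± 451.5 (SD, n = 3), so that the SD exceeded the mean in both.

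**Figure D1:**
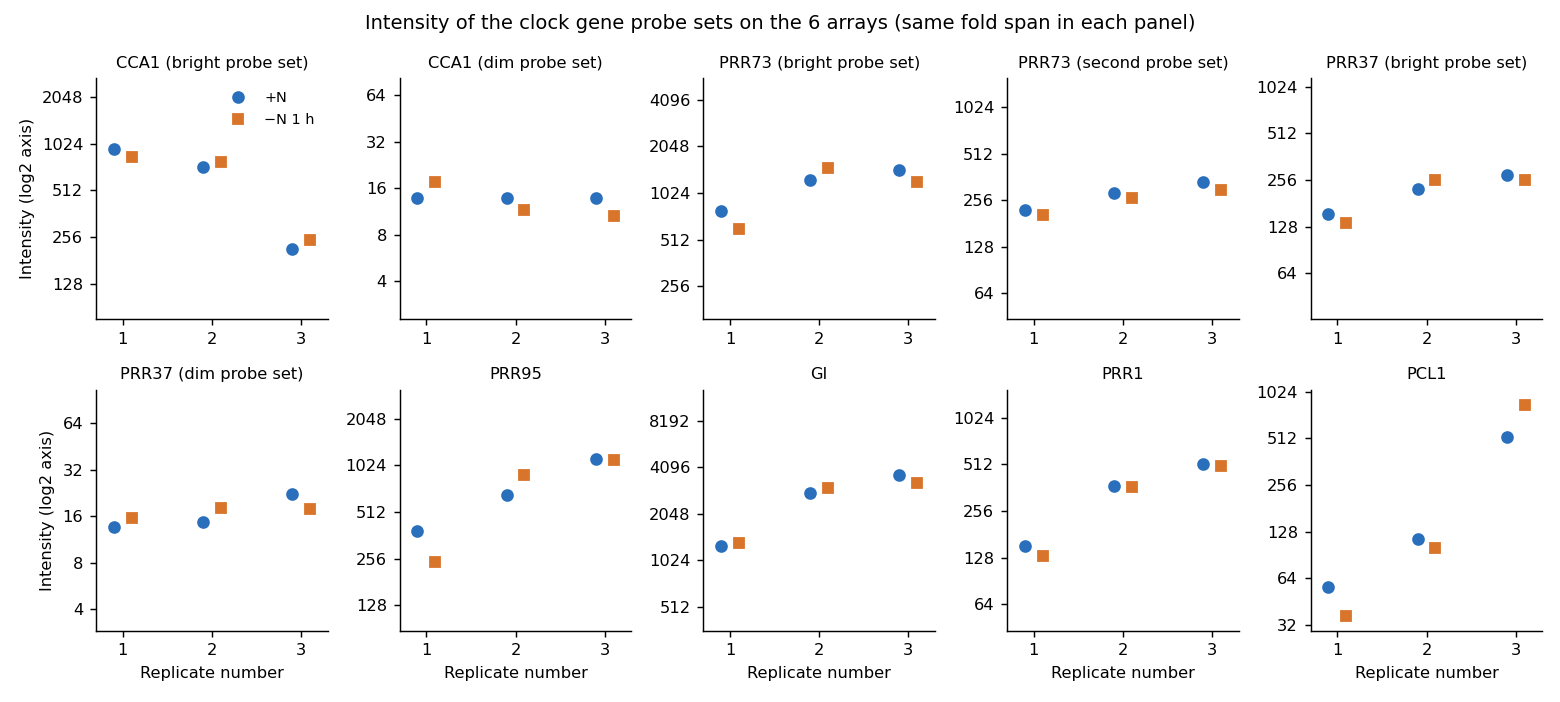
Linear intensity (log axis) of the clock probe sets on each array, by replicate number on the horizontal axis, with +N as circles and −N as squares. CCA1 is lowest in number 3 in both treatments (214.2 and 244.5), where PCL1 is highest (521.6 and 848.4).

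The numbers at which the genes parted were not the same. GI and PRR1 differed most between number 1 and the other numbers, while CCA1 and PCL1 differed most between number 3 and the other numbers, in opposite directions. On the log2 scale, the difference of number 3 from number 2 was −1.76 in +N and −1.67 in −N for CCA1, and 2.18 and 3.08 for PCL1. It was 0.38 and 0.11 for GI, 0.47 and 0.45 for PRR1, and 0.78 and 0.33 for PRR95. For PRR73 it was 0.23 in +N and −0.30 in −N, and for PRR37 0.30 and 0.01. This contrast, chosen after the data were seen, is little touched by the lower values of number 1, since its median over bright probe sets was −0.07.

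In the contrast of numbers 3 and 2, 0.404% of all probe sets were at least 2-fold higher in number 3 in both treatments, and 0.484% were at least 2-fold lower. PCL1 was among the former and CCA1 among the latter, and no other clock probe set was in either. Counting PCL1 itself, 6 probe sets were higher in number 3 by at least the smaller of its 2 values. Counting CCA1 itself, 25 probe sets were lower in number 3 by at least the smaller of its 2 values. The genes and the contrast were both chosen with values of these arrays known, so nothing is read from these shares and counts.

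Clock genes were also counted by a rule for replicate numbers, met where the highest number was at least 2-fold over the lowest in each treatment and the same numbers were highest and lowest in both. The rule was met by 5 of the 10 clock probe sets, 1 each of PCL1, CCA1, PRR1, PRR95 and GI, and by 6.16% of all probe sets and 8.11% of bright ones. Number 3 was highest and number 1 lowest for PCL1, PRR1, PRR95 and GI, a pattern of 1.08% of all probe sets. Number 1 was highest and number 3 lowest for CCA1, a pattern of 0.804%. The most common pattern over the array was number 2 highest and number 1 lowest, with 1810 of the 3524 probe sets that met the rule, and no clock probe set had it. The clock genes were chosen for such differences, so nothing is read from these counts.

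By the smaller of the 2 ranges, GI was the clock probe set just inside the 2-fold limit, at 2.47-fold. PRR73 and PRR37 were just outside it, at 1.84-fold and 1.79-fold.

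**Figure D2:**
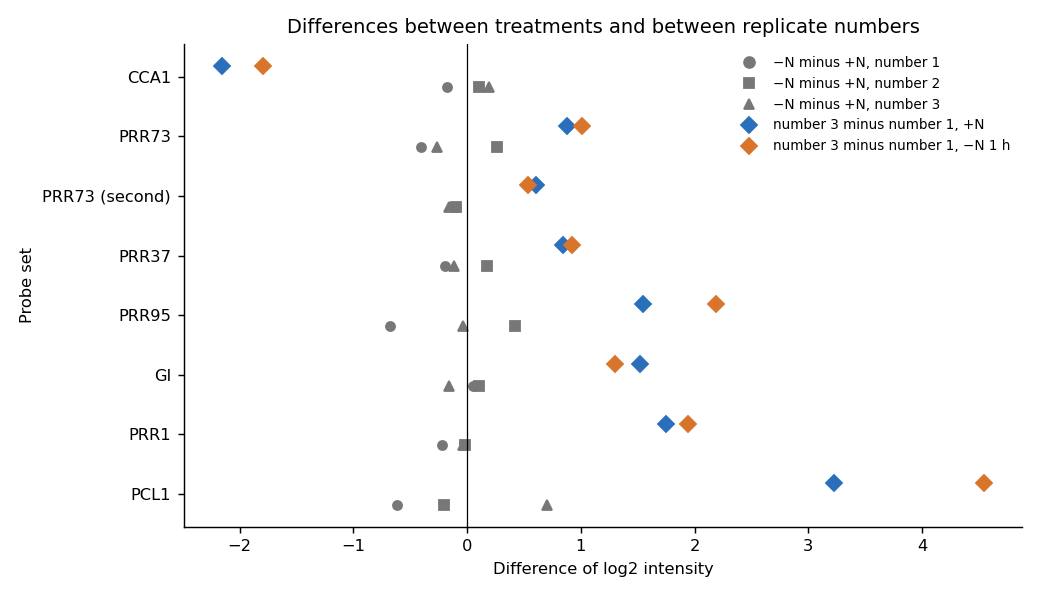
Differences of log2 intensity (horizontal axis) for the 8 bright clock probe sets: number 3 minus number 1 in each treatment (diamonds), and −N minus +N within each number (grey). Number 3 minus number 1 reaches 4.55 for PCL1 and −2.16 for CCA1, while those of −N from +N lie between −0.67 and 0.70.

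**Figure D3:**
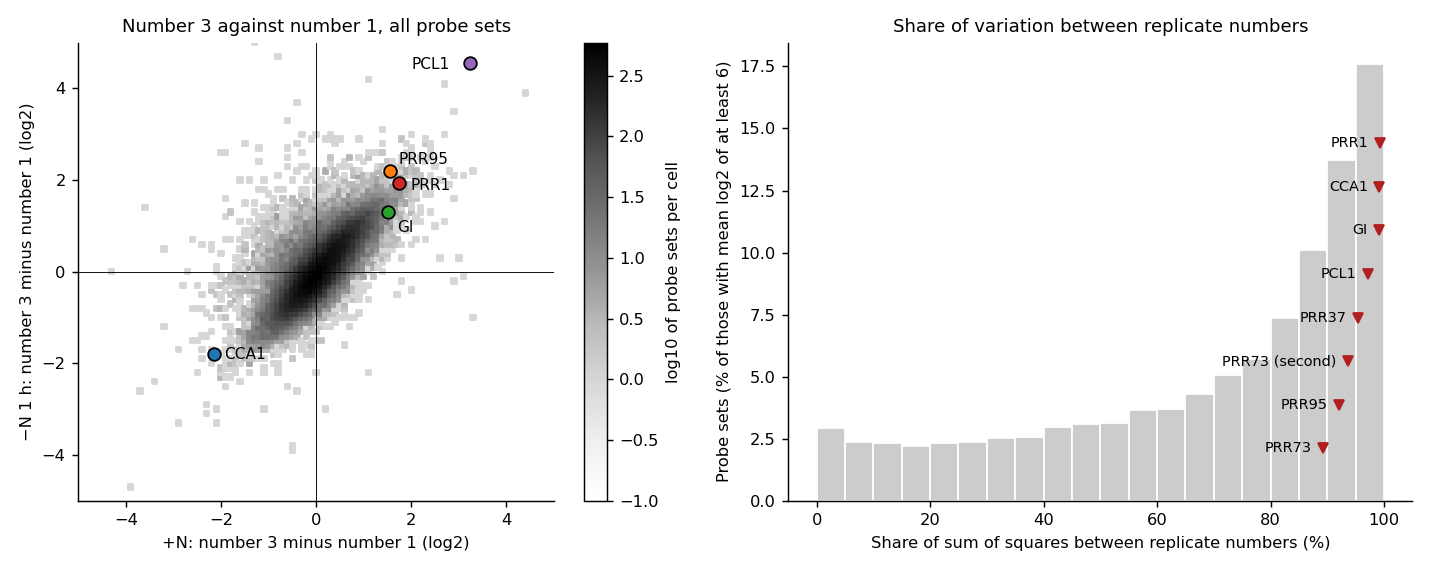
Left, number 3 minus number 1 on the log2 scale in +N (horizontal) and −N (vertical), with all probe sets in grey by number per cell (5 lie outside the axes) and the 5 clock probe sets that met the 2-fold rule in colour. Right, histogram over bright probe sets of the share of the sum of squares between replicate numbers, with bright clock probe sets as triangles whose height has no meaning. The 8 bright clock probe sets have shares of 89.2% to 99.3%, against a median of 79.0% over bright probe sets. The genes were chosen for differences between numbers, so nothing is read from this gap.

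Of the sum of squares of a probe set's log2 values over the 6 arrays, the share between replicate numbers was 99.3% for PRR1, 99.2% for CCA1, 99.1% for GI and 97.2% for PCL1. It was 95.5% for PRR37, 92.1% for PRR95, and 89.2% and 93.6% for the 2 probe sets of PRR73. The median was 78.6% over all probe sets and 79.0% over bright ones. The clock genes were chosen for differences between numbers, so nothing is read from their place above these medians. The dim probe sets of CCA1 and PRR37 had 47.3% and 64.7%. The share between treatments was at most 5.96% in the bright clock probe sets.

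The size of the differences moved with the scaling of the arrays. After quantile normalisation, which gives all arrays a single distribution, number 3 minus number 1 on the log2 scale was −2.48 in +N and −2.26 in −N for CCA1. It was 3.08 and 4.43 for PCL1, 1.43 and 1.5 for PRR1, 1.18 and 1.73 for PRR95, and 1.20 and 0.94 for GI, which no longer met the rule in −N. For PRR37 it was 0.53 and 0.47, and for the brighter probe set of PRR73 0.53 and 0.58. The second probe set of PRR73 went from 0.60 and 0.54 to 0.24 and 0.04, so that little of its difference was left in −N. It turned its sign between numbers 2 and 1, from 0.37 and 0.38 to −0.07 and −0.15. For the bright probe set of CCA1, number 2 minus number 1 went from −0.40 and −0.12 to −0.83 and −0.63. The nearness of numbers 1 and 2 in CCA1 thus depended on the scaling. The sign between numbers 3 and 1 was kept in all 8 bright probe sets. The share of the sum of squares between numbers fell to 73.4% and 65.4% for the brighter and second probe sets of PRR73. It fell to 86.3% for the bright probe set of PRR37 and to 88.2% for PRR95. For PCL1, GI, PRR1 and the bright probe set of CCA1 it was 96.9%, 97.5%, 99.1% and 99.7%.

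The experiment was designed to compare −N with +N. The genes were chosen for differences between replicate numbers, with earlier results of these data known, so this comparison is not independent of the choice. Large differences between numbers within each treatment also make the arrays of the treatments more likely to overlap and a difference harder to call. The arrays of the treatments overlapped in all 10 clock probe sets, while 5.89% of all probe sets had them apart. None of the 10 passed the test of limma (adjusted p = 1 for each), which called 0.00699% of all probe sets, 4 of 57194. The lowest unadjusted p among them was 0.625, in limma, and 1745 of all probe sets had one under 0.05. The SE of the log2 fold change was between 0.24 and 1.19 in the bright clock probe sets. The 95% interval of PCL1 reached from −2.79 to 2.71 and that of GI from −1.09 to 1.09, so that changes of 2-fold in either direction lay within them.

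Arrays of the same number deviated together, and the fit with the replicate number as a block narrowed these intervals. In that fit limma called 415 probe sets, 0.726% of all, and again none of the 10. The log2 fold change of GI was −0.00 (SE 0.11, adjusted p = 0.999 from limma), with a 95% interval of 0.83-fold to 1.20-fold. For CCA1 it was 0.04 (SE 0.12, adjusted p = 0.945 from limma), with an interval of 0.85-fold to 1.25-fold. The interval of PRR1 was 0.78-fold to 1.12-fold, that of PRR37 0.80-fold to 1.18-fold, and that of PRR73 0.71-fold to 1.16-fold. PRR95 and PCL1 had wider ones, 0.68-fold to 1.29-fold and 0.67-fold to 1.42-fold. With the block, a 2-fold change lay outside the interval of each of the 8 bright probe sets, and smaller changes lay within. The choice of genes by their differences between numbers may have added to the narrowness of these intervals, which was not tested.

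Within single numbers, −N minus +N on the log2 scale was −0.62, −0.20 and 0.70 for PCL1 in numbers 1, 2 and 3. For PRR95 it was −0.67, 0.42 and −0.03, for PRR73 −0.40, 0.26 and −0.27, and for PRR37 −0.20, 0.18 and −0.11. At their brightest probe sets, these 3 PRR genes were lower in −N in numbers 1 and 3 and higher in number 2. This pattern of signs was that of 8.20% of bright probe sets. The dim probe set of PRR37 did not have it, with 0.19, 0.31 and −0.33, and neither did the second probe set of PRR73. GI had 0.05, 0.11 and −0.16, and CCA1 −0.18, 0.10 and 0.19. PRR1, with −0.22, −0.02 and −0.04, and the second probe set of PRR73 lay on one side in all 3 numbers.

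Likeness of profiles was measured as the root mean square difference of log2 values over the 6 arrays. Each probe set was centred on its own mean but not scaled, and each gene was taken at its brightest probe set. PRR73 and PRR37 were the closest pair of clock genes, at 0.13, followed by PRR95 and PRR1 at 0.19 and GI and PRR1 at 0.20. PCL1 was at least 1.00 from every other clock gene and 2.49 from CCA1. Among 1922 other genes with a name, those nearest to GI were OsPP2C11 (0.08), CSLC1 (0.10), cbp31 (0.11), OsMac1 (0.12) and MOR1 (0.12). OsPP2C11, named as a protein phosphatase, read 352.6, 732.6 and 1019 units in +N replicates 1, 2 and 3, and 376.7, 737.4 and 846.0 in −N.

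The genes nearest to CCA1 were MtN3-like (0.34), osysl15 (0.42), HSF24 (0.47), Hox22 (0.51) and OSA15 (0.56). By their names, osysl15 belongs to the family of metal-chelate transporters, HSF24 to the heat shock factors and Hox22 to the homeodomain proteins. MtN3-like read 274.5, 160.9 and 73.6 units in +N and 269.3, 207.8 and 116.6 in −N, with number 3 lowest in both. For PCL1, looked up after the data were seen, the nearest were BBD1 (0.71), OsSAPK9 (0.74), EXPB18 (0.95), OsPP2C45 (1.01) and HSF03 (1.04). OsSAPK9, named as a kinase of the stress- and abscisic acid-activated family, read 98.4, 165.4 and 443.8 units in +N and 94.0, 230.9 and 525.9 in −N. The nearest genes to CCA1 and PCL1 were thus farther from them than those of GI were from GI. Profiles were not scaled to a common range, so these distances also grow with the range of a gene. The smaller of the 2 ranges was 1.79 for CCA1 and 3.23 for PCL1 on the log2 scale, against 1.30 for GI. Likeness in shape alone cannot be read from these distances.

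Other genes of the clock and of light responses were taken from lists. From the list of other clock and clock-related genes, 2 were matched by name and 1 had a probe set. This was EL1 (also Hd16), a casein kinase that acts on heading date. EL1 is not one of the transcription factors of the loop described above, so the list added no further member of that loop. It read 333.0, 774.3 and 750.1 units in +N replicates 1, 2 and 3, and 328.5, 956.4 and 798.6 in −N, and met the number rule with number 2 highest and number 1 lowest. Of 12 photoperiodic flowering genes, 10 had 18 probe sets, of which 2 met the rule, both of EHD3, a flowering activator of rice. The rule was met by 6.16% of all probe sets and 8.11% of bright ones. The brighter of the 2 read 116.4, 290.6 and 214.1 units in +N replicates 1, 2 and 3, and 117.7, 252.1 and 219.1 in −N. The other was dim, at 6.8 to 23.3 units, and a further probe set of EHD3 did not meet the rule. Of 7 genes for photoreceptors and light signalling, 6 had 7 probe sets, of which 1 met the rule. This was the dimmer probe set of PHYA, the phytochrome A gene, with 375.7, 803.5 and 694.2 units in +N and 345.2, 796.2 and 604.7 in −N. The brighter probe set of PHYA did not meet the rule. It read 1237, 1751 and 2012 units in +N and 1138, 2207 and 1606 in −N. The probe sets of these lists that met the rule all had number 2 highest and number 1 lowest. This was the most common pattern over the array, with 1810 of the 3524 probe sets that met the rule. None of the 10 probe sets of the 7 clock genes had it under the rule.

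In −N against +N, 0 probe sets of these 3 lists were called by limma in either direction, with or without the block. Their median log2 fold changes were 0.13 for EL1 alone, −0.01 for the flowering genes and −0.11 for the light genes, against −0.00 over all probe sets.

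Markers of root were measured in 10 genes with 14 probe sets. LSI1, the silicon channel of the root, read 11842 to 16384 units. Of the 14 probe sets, 12 were above the median of every array, and the only one of SCR1, a regulator of root patterning, was below it on every array, at 13.7 to 28.2 units. Summed over the brightest probe set of each gene, in which LSI1 was the largest, the intensity was 22692 to 32517 in +N and 20366 to 26662 in −N. This sum includes AMT1;2, an ammonium transporter gene that the paper lists as repressed by −N. AMT1;2 read 3249, 4770 and 4082 units in +N replicates 1, 2 and 3, and 1887, 619.4 and 1166 in −N. Its part in the lower sum of −N was not tested. The number rule was met by 4 of the 14 probe sets, with number 2 highest and number 1 lowest, and by 6.16% of all probe sets and 8.11% of bright ones. At the brightest probe set of each gene it was met by 2 of the 10 genes, CASP1 and PHO1;2. The others of the 4 were further probe sets of CASP1.

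Green shoot genes were measured in 6 genes with 14 probe sets. Summed over the brightest probe set of each gene, which leaves out 8, their intensity was 23989, 13858 and 16632 in +N replicates 1, 2 and 3, and 7338, 12130 and 11151 in −N. This sum was highest in number 1 in +N and lowest in number 1 in −N, and most of it was CAB2R, a chlorophyll-binding protein, with 14903 units in +N replicate 1. Other genes had another order. RCA, the activase of Rubisco, read 3457, 845.0 and 666.3 units in +N and 739.7, 838.1 and 421.3 in −N at its brightest probe set, and PSAG, a photosystem subunit, read 205.1, 111.1 and 79.6 in +N and 123.9, 122.3 and 86.1 in −N. Both were lowest in number 3 in both treatments, as CCA1 was.

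Number 3 was the lowest in 8 of the 14 green shoot probe sets in +N, in 10 in −N and in 8 in both. Those 8 were all of RCA, PSAG and RBCS-C. At the brightest probe set of each gene, RCA and PSAG had number 3 lowest in both treatments, and CAB2R, PSAH, RBCS-C and RBCS1 did not. In 4 of the 14 probe sets number 3 was the lowest and number 1 the highest in both treatments, the order of CCA1. Of these, 1 probe set, of RBCS-C, met the number rule, and the others were of PSAG and RCA. The share of all probe sets with this order but no 2-fold limit is not given here, so nothing is read from the count of 4. Number 1 was the lowest in both treatments in 0 of the 14. The brightest probe set of PSAG carries the synonym OSA15 and is among the nearest to CCA1, while the probe set of RBCS1 was dim on every array, at 5.10 to 6.06 units. In −N against +N, the median log2 fold change of the green shoot probe sets was −0.98 and that of the root probe sets 0.01, and 0 of either list were called by limma, with or without the block. The part of these markers in the differences of the clock genes between numbers was not tested.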

How the data were processed

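The authors deposited intensities of 57381 probe sets on a linear scale for 6 arrays. GCOS and RMA are named in the submitters' processing notes, without versions or settings. All 6 columns were matched to samples by their labels. In the re-analysis 187 control probe sets were left out, values were taken to log2 without a pseudocount, and −N was compared with +N over the remaining 57194 probe sets in limma 3.58.1 (lmFit, then eBayes, R 4.3.3). Tests were two-sided, p-values were adjusted by Benjamini-Hochberg over all probe sets, and the threshold was 0.05. Other values were computed in Python 3.11.15 with pandas 2.3.3 and numpy 2.4.6. The fits were tested on simulated data. The design had assumed deposited log2 values, so the deposited linear intensities were converted first. The number of arrays, 3 in each treatment, limits the precision. Separate cultures are not stated for the replicates, which the labels name biological, so p-values measure only the spread between these arrays, which may be technical.

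Gene symbols came from the platform annotation, which ties 22436 probe sets to 1 symbol, 95 to several and 34850 to none. For synonyms, a gene table of RefSeq (assembly ASM3414082v1) served, and nothing but names was taken from it. The members and lists were chosen with earlier results of these data known. Named genes were all probe sets of the 7 clock genes, list members that passed the test or the rule for replicate numbers, and the 5 named genes nearest in profile to GI and to CCA1, bright and with a name other than a locus symbol, by symbol or synonym. The contrast of numbers 3 and 2 and the genes nearest to PCL1 were chosen after seeing the data.

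Whether the replicate numbers pair the samples was checked by correlating deviations from the group means. The correlation was 0.785, 0.664 and 0.653 for same-numbered arrays, and for others between −0.547 and 0.0846, so the samples were taken as paired by number, from the data and not from the labels. The fit without the block remained the reported test. Alternatives were the replicate block, quantile normalisation, median centring, a pseudocount of 16, a filter on dim probe sets, leaving out each array, 1 probe set per gene, the mean over the probe sets of a gene, and limits of 1.5-fold and 4-fold for the number rule.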

Additional observations from a re-analysis of the deposited data

How the results depend on the processing

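Without a block, limma called 0 probe sets higher and 4 lower in −N. With the replicate number as a block these counts were 190 and 225. They were 0 and 10 after quantile normalisation, 0 and 2 after median centring, 3 and 14 with the filter on dim probe sets, and 4 and 15 with 1 probe set per gene. Leaving out each array gave 0 to 1 higher and 0 to 1 lower. Of 114 log2 fold changes of the clock probe sets under the alternatives, 0 passed the threshold (lowest adjusted p 0.742, limma) and 28 turned their sign. Signs turned to −0.03 for CCA1 and 0.01 for PRR37 with probe sets averaged, to 0.03 and 0.01 for GI after quantile normalisation and median centring, and to 0.02 for PCL1 with the pseudocount of 16.

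Leaving out each array gave log2 fold changes of −0.61 to 0.62 and −0.32 to 0.05 for the 2 probe sets of CCA1, −0.41 to 0.25 and −0.28 to 0.03 for those of PRR73, and −0.27 to 0.26 and −0.08 to 0.28 for those of PRR37. The ranges were −0.51 to 0.58 for PRR95, −0.44 to 0.42 for GI, −0.60 to 0.48 for PRR1 and −1.31 to 0.96 for PCL1. The share of all probe sets that met the number rule was 2.73% with the pseudocount, 21.3% at 1.5-fold and 0.166% at 4-fold, and at 4-fold 1 clock probe set met it. The cause of these changes was not tested. Dim probe sets of CCA1 and PRR37 limit what can be said of agreement between probe sets of a gene.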
